A study of Mus musculus with 8 samples.

Results

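The comparison set RNA from hearts of adult mice that carry the homozygous LncSync null genotype (LncSync-/-, KO) against RNA from hearts of adult wild-type mice (WT). LncSync is a long noncoding RNA, a transcript that is not translated into protein. The 4 adult libraries of the series, 2 KO and 2 WT, were taken by their labels, of 8 libraries in all; the other 4 came from embryos at e13.5 and entered only the estimate of spread and the comparison between ages. All 8 carried the strain label C57BL/6 and the cell type label cardiomyocyte, and no treatment was named. How the null allele was made is not stated in the labels. The age and sex of the adults are not given in the labels, nor is whether each library came from a separate animal, so p-values measure the spread between these libraries, which may be technical. The input was 200 ng of RNA per library, copied and amplified by Smart-seq2, a full-length cDNA method.

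Adult library totals ran from 17159009 to 19760351 estimated counts, and 16623 of 51826 gene identifiers were tested. Levels are given as CPM, counts relative to the scaled library size and not corrected for gene length, and 3 counts in a library equalled 0.175 to 0.207 CPM. LncSync was not named among the identifiers matched here, so its own level was not analysed here and the genotype labels were not checked against it. Sync, the gene of the intermediate filament protein syncoilin, lay at 18.2 and 15.3 CPM in WT and 16.3 and 21.4 CPM in KO (log2 fold change 0.17 ± 0.62 SE, adjusted p = 1). None of 14 cardiomyocyte markers was at 0, and their summed level was 107500 and 106800 CPM in WT and 90420 and 105100 CPM in KO. Endothelial markers summed to 2426 to 4681 CPM and fibroblast markers to 1108 to 2503 CPM, so RNA of other heart cells was also present, and the markers do not tell isolated cardiomyocytes from whole heart. Across genes the 2 WT libraries correlated with r = 0.978 and the 2 KO libraries with r = 0.957, against 0.951 to 0.973 between genotypes, so the KO libraries were no more alike than libraries of different genotype. KO library 1 had the lowest level of Ttn, the giant sarcomere protein titin (chosen after its values were seen), at 1231 CPM, with 7470 CPM in KO library 2 and 4686 and 5461 CPM in WT. Alb, the albumin gene of liver, was 38.8 CPM in WT library 2 and 56.2 CPM in KO library 2, against 0 in both libraries numbered 1.

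Processed pseudogenes are copies of a messenger RNA that were inserted elsewhere in the genome. Reads of such a copy and of its source gene can be told apart only where their sequences differ, and a counting program that estimates shares, such as RSEM, divides the other reads between them. Ribosomal protein genes have many such copies. Of the 8 genes that passed the test in the adult comparison, 5 were near-identical copies of genes of the ribosome or of tropomyosin. Whether the division of reads had a part in these calls was not tested.

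Of the 16623 genes tested, 8 changed in adult KO hearts at an adjusted p below 0.05 (edgeR quasi-likelihood test, Benjamini-Hochberg adjustment), or 0.0481% of the genes tested. Of these, 7 rose (0.0421%) and 1 fell (0.00602%). The risers were the ribosomal protein copies Rpl3-ps1, Rps3a2, Rpl34-ps1 and Gm10020, the tropomyosin copy Tpm3-rs7, and the genes 6330403K07Rik and Mindy4b-ps. The gene that fell was Gvin1, which encodes a very large interferon-inducible GTPase. Each adult library was left out in turn, which leaves 1 library in its group. The direction of all 8 was kept, as it had to be, because their libraries did not overlap between genotypes. Log2 fold changes then ran, for instance, from 13.38 to 14.58 for Rpl3-ps1 and from 5.328 to 7.759 for Mindy4b-ps. With DESeq2 the count of changed genes was 54. In a fit of the 4 adult libraries alone it was 2, with none of the 8 among them.

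To show how little coding sequence separates each copy from its source, the stretch of 90 coding bases with the most differences is printed. It is given for the copy and for its source gene, read from the GENCODE vM21 transcripts, with the bases that differ in capitals. Differences outside the coding part are not counted. Rpl3-ps1 and Rpl3, a protein of the large ribosomal subunit, differ at 2 of 1209 aligned coding bases, and 1 of them lies in the stretch shown.
Rpl3-ps1: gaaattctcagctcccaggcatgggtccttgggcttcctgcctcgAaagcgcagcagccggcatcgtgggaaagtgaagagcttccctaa
Rpl3: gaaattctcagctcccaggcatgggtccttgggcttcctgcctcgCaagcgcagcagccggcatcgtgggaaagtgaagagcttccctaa

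Rps3a2 and Rps3a1, the source gene for a protein of the small subunit, differ at 4 of 792 coding bases.
Rps3a2: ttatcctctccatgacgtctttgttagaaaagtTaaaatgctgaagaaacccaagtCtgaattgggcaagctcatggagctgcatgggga
Rps3a1: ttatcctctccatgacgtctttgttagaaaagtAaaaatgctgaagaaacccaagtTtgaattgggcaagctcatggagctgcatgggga

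Tpm3-rs7 and Tpm3, which encodes a tropomyosin that winds along actin filaments, differ at 3 of 744 coding bases, all in the stretch shown. Their transcripts align over 2108 bases, most of them outside the coding part, with 99.1% identity, so they also differ there.
Tpm3-rs7: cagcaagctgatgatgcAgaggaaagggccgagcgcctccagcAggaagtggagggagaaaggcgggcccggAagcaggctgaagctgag
Tpm3: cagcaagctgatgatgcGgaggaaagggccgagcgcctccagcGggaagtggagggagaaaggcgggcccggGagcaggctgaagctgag

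Rpl34-ps1 and Rpl34, of the large subunit, differ at 2 of 351 coding bases.
Rpl34-ps1: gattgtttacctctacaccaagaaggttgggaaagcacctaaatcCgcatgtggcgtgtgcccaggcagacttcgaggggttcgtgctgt
Rpl34: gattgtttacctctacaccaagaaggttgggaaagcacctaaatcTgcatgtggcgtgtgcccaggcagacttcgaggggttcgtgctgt

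Gm10020 and Rpl15, also of the large subunit, differ at 2 of 612 coding bases, both shown.
Gm10020: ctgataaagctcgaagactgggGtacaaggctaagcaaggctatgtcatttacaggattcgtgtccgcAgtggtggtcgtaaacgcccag
Rpl15: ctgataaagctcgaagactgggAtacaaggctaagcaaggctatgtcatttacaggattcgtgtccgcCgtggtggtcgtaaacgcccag

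Rpl3-ps1 is a processed pseudogene at chrX:13202571-13203780 on GRCm38, the build of all coordinates here. It had 0 counts in both WT libraries and lay at 153 and 67.1 CPM in KO. With the WT group set at 3 counts over both libraries, it was at least 1166-fold higher (adjusted p = 0.00461). Rpl3 itself lay at 126 and 94.2 CPM in WT and at 26.4 and 15.6 CPM in KO, with a log2 fold change of -2.39 ± 0.49 that missed the threshold (adjusted p = 0.322). The copy and its source thus lay in opposite order: the copy held 0% of their joint level in both WT libraries and 85.3% and 81.1% in KO. Rpl3l, the muscle paralogue of Rpl3, chosen after its values were seen, lay at 275.6 and 250.9 CPM in WT and 333.5 and 256.1 CPM in KO, and its groups overlapped. Summed over the 7 near-identical genes that the count table lists, the Rpl3 family was at 126.4 and 94.2 CPM in WT and 179.7 and 82.9 CPM in KO, and the groups overlapped (log2 0.25 ± 0.51, adjusted p = 1).

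Tpm3-rs7, annotated as protein coding at chr14:113314608-113316754, had 0 counts in WT and lay at 40.9 and 20.2 CPM in KO (at least 323-fold, adjusted p = 0.00461). Tpm3 was at 61.0 and 46.7 CPM in WT and 33.1 and 16.8 CPM in KO, and the copy held 55.2% and 54.5% of their joint level in KO. Their sum was 61.0 and 46.7 CPM in WT and 74.1 and 37.0 CPM in KO (log2 0.04 ± 0.46, adjusted p = 1). One KO library thus lay above and the other below both WT libraries.

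Rps3a2, a processed pseudogene at chr14:88123017-88123808, had 0 counts in WT and lay at 45.4 and 25.4 CPM in KO (at least 374-fold, adjusted p = 0.00461), 10.8% and 10.2% of its joint level with Rps3a1. Rpl34-ps1, at chr6:71124610-71124963, had 1 count over both WT libraries and lay at 38.7 and 19.0 CPM in KO. The ratio of counts was 917 (95% interval from counting error alone, 164 to 36240), with an adjusted p = 0.0047. Its share of the joint level with Rpl34 was 22.7% and 21.4% in KO. Gm10020, at chr15:52477617-52478228, had 0 counts in WT and lay at 62.4 and 25.6 CPM in KO (at least 465-fold, adjusted p = 0.0138), 38.1% and 24.0% of its joint level with Rpl15. In each of these 3 pairs the source gene was not lower in both KO libraries, unlike Rpl3 and Tpm3: the log2 fold changes were 0.05 ± 0.47 for Rps3a1, 0.19 ± 0.48 for Rpl34 and 0.73 ± 0.48 for Rpl15. Their families summed gave 0.22 ± 0.47, 0.55 ± 0.48 and 0.41 ± 0.52 (adjusted p = 1 for each).

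**Figure D1:**
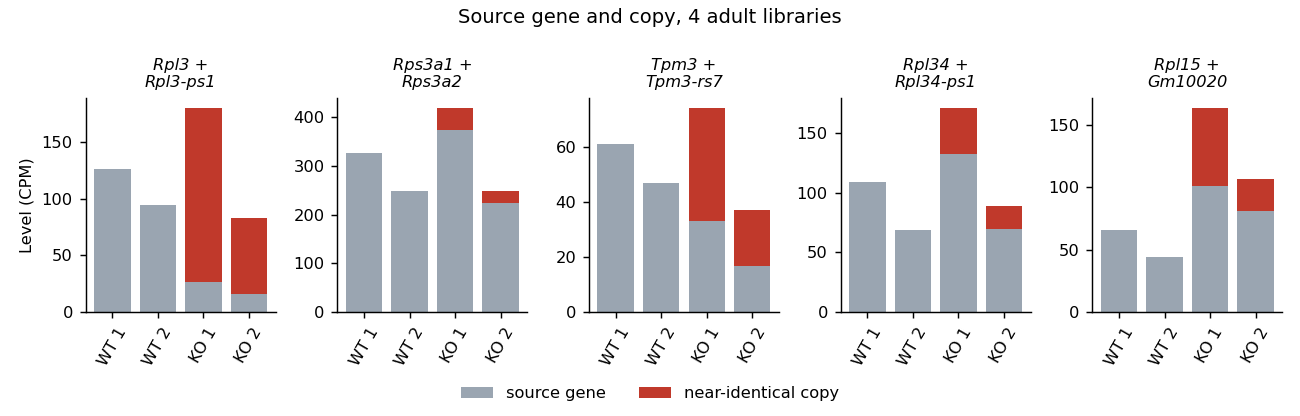
Level in CPM of each source gene (grey) and its near-identical copy (red), stacked, in the 4 adult libraries. The copy is at or near 0 in both WT libraries and adds 19.0 to 153 CPM per KO library. The stacked total of KO library 2 lies below both WT libraries for Rpl3 and Tpm3. For Rps3a1 it is barely below WT library 2, at 249.4 against 249.7 CPM.

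Gvin1, at chr7:106156556-106215326, lay at 63.5 and 27.2 CPM in WT and had 0 counts in KO. By the same floor, set for KO, it was at least 473-fold lower (adjusted p = 0.0323, and 0.115 with a replicate block in adults alone). Its sequence is identical over 9005 aligned bases to that of Gm4070, the neighbouring gene at chr7:105895139-105953967. Gm4070 was at 54.1 and 29.3 CPM in WT and 25.04 and 45.0 CPM in KO, and its groups overlapped. The 4 genes of the family summed to 118.6 and 56.7 CPM in WT and 25.2 and 45.4 CPM in KO, so the groups did not overlap (log2 -1.31 ± 0.64, adjusted p = 1 in edgeR). Gm18853, a pseudogene within the span of Gvin1 and chosen after its values were seen, showed 1.98 and 0.758 CPM in WT and 0 counts in KO.

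The other 2 changed genes had no near-identical gene. 6330403K07Rik, at chr11:71031941-71033513, had 1 count in WT and 145 in KO, at 6.06 and 3.51 CPM (ratio 152, interval 26.8 to 6040, adjusted p = 0.027, and 0.115 with that block). At e13.5 the same gene was at 39.9 and 28.2 CPM in WT and 77.3 and 88.9 CPM in KO, so it was detected in both genotypes there. Mindy4b-ps, at chr3:58788407-58822311, lay at 0.0582 and 0.344 CPM in WT (6 counts in all) and 14.2 and 13.9 CPM in KO (log2 6.13 ± 0.81, adjusted p = 0.048). The call of Mindy4b-ps was lost with a minimum of 5 CPM (adjusted p = 0.0597), with robust quasi-likelihood (0.0509) and with the replicate block at each age (0.0668) or in adults alone (0.122). The tested genes within 250 kb of either one were not changed: Mis12 and Rpain beside 6330403K07Rik, for instance, had log2 fold changes of -0.48 ± 0.42 and -0.40 ± 0.48 (chosen after their values were seen).

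**Figure D2:**
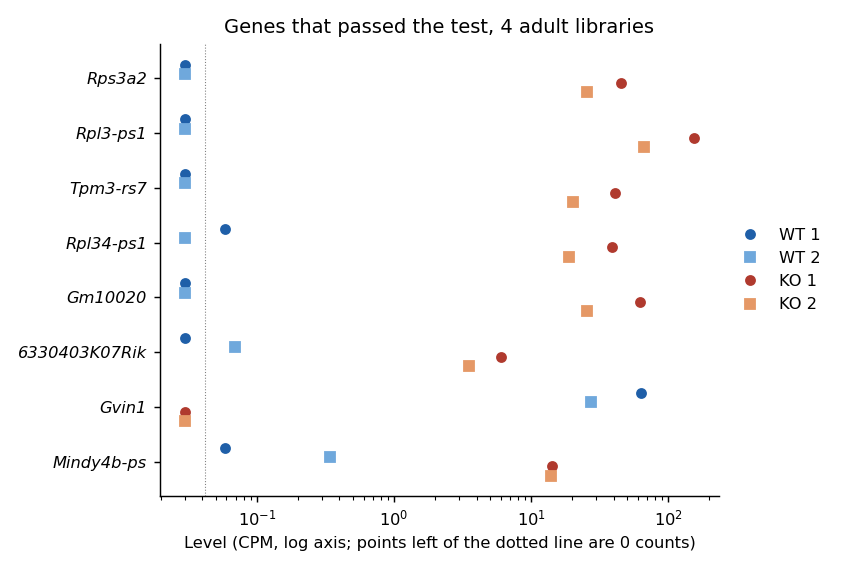
Level in CPM (log axis) of the 8 changed genes in each adult library, circles for library 1 and squares for library 2; points left of the dotted line had 0 counts. In all, 7 genes lie between 3.51 and 153 CPM in KO and at most 0.344 CPM in WT, and Gvin1 shows the reverse.

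In an alternative added after the data were seen, the counts of the changed genes were summed with those of their near-identical genes before the fit. In it, 0 of 16613 genes changed. Only families that hold a changed gene were summed, and other near-identical genes kept their own counts. The families were picked by the calls themselves, so the drop to 0 is no independent test of those calls. In that fit 6330403K07Rik and Mindy4b-ps kept log2 fold changes of 6.97 and 6.13, with an adjusted p = 0.119 for both. Neither has a near-identical gene, so their own counts were not summed. Their unadjusted p in that edgeR fit was 9.65e-06 and 2.3e-05. The adjusted p also depends on how many other genes have a small p.

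Whether the adult difference differed from that at e13.5 was tested by the interaction of genotype and age. It passed for 0 of 16623 genes in edgeR (0%; 265 at an unadjusted p under 0.05), for 7 with DESeq2 and for 30 without a filter on low counts. The copies were higher in KO at both ages: Rpl3-ps1 lay at 0.783 and 0.448 CPM in WT and 692 and 652 CPM in KO at e13.5, and Tpm3-rs7 at 1.15 and 1.07 CPM in WT and 345 and 268 CPM in KO.

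Below the threshold, 4636 further genes had libraries that did not overlap between genotypes. Over all genes the share was 13.47% higher in KO and 14.47% lower (27.9% in all), 53.7% of genes had a positive log2 fold change, and 377 genes (2.27%) had an unadjusted p under 0.05. The genes described next were taken from those without overlap that missed the threshold and had at least 5 CPM in the higher group. Genes with a Gm number, a Rik or ps name or an accession-like name were left out. Of the rest, the 12 of smallest p in each direction were kept. Of these 24, 4 passed with median-of-ratios or upper quartile scaling (Pttg1, Lrat, Pagr1a and Serpina3h), 2 with a replicate block at each age, 15 without a filter and 19 with DESeq2.

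Among those lower in KO was Pttg1, the gene of securin, the inhibitor of separase until anaphase. It lay at 47.6 and 57.0 CPM in WT and 2.11 and 1.39 CPM in KO (log2 -4.89 ± 0.68, adjusted p = 0.0597). Lrat, the enzyme that stores retinol as retinyl ester, had 6.99 and 8.13 CPM in WT against 1 count over both KO libraries. Trim12a, a relative of the antiviral factor TRIM5, had 7.92 and 7.09 CPM in WT and 0.0659 and 0.331 CPM in KO (log2 -5.20 ± 0.80, adjusted p = 0.0924). For these 3 genes every KO library lay below 3 CPM.

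Tmem100, an endothelial gene that responds to BMP signalling, lay at 13.7 and 12.9 CPM in WT and 1.25 and 0.530 CPM in KO (log2 -3.89 ± 0.66, adjusted p = 0.145). Of the 23 endothelial markers it belongs to, 19 had positive log2 fold changes (median 0.33). Without overlap, 3 were lower, Tmem100 among them, and 3 were higher, near the 14.47% and 13.47% of all genes. Arrdc2, an arrestin-domain gene, was at 31.4 and 54.3 CPM in WT and 3.56 and 5.30 CPM in KO. Slc38a1, a glutamine transporter, was at 16.9 and 19.8 CPM against 3.69 and 3.98 CPM, with the smallest SE of the 12 genes (log2 -2.25 ± 0.40, adjusted p = 0.186). Il15, a cytokine that sustains natural killer and memory T cells, was at 23.5 and 27.0 CPM against 3.89 and 2.65 CPM. Rhobtb1 was at 270.9 and 330.0 CPM against 69.4 and 87.8 CPM (log2 -1.93 ± 0.41, adjusted p = 0.361). The remaining genes of this direction were Angptl7, Zfp697, Fkbp5 and Rpl3.

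Cyfip2, of the WAVE complex that drives actin branching, was chosen after its values were seen: it lay at 268.4 and 211.6 CPM in WT and 15.7 and 12.6 CPM in KO (log2 -4.08 ± 0.92, adjusted p = 0.468). Cyfip2 and Pttg1 were the 2 genes that passed when only the 4 adult libraries were fitted.

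Among genes higher in KO, Pagr1a, a subunit of histone H3K4 methyltransferase complexes, lay at 0.349 and 1.03 CPM in WT and 17.5 and 12.9 CPM in KO (log2 4.47 ± 0.64, adjusted p = 0.0602). Ankrd23, a muscle ankyrin repeat protein that binds titin, lay at 214.5 and 249.5 CPM in WT and 625.6 and 683.1 CPM in KO (log2 1.496 ± 0.395, adjusted p = 0.852). The KO mean of Ankrd23 was 2.82 times the WT mean. Cx3cr1, the fractalkine receptor of monocytes and macrophages, was at 0.931 and 1.31 CPM against 9.62 and 5.63 CPM (log2 2.76 ± 0.66, adjusted p = 0.594). Retnla, a secreted product of alternatively activated macrophages, was at 2.10 and 1.03 CPM against 13.8 and 9.55 CPM. Of 22 macrophage and leukocyte markers 20 had positive log2 fold changes, with a summed level of 524.6 and 325.2 CPM in WT and 711.7 and 449.0 CPM in KO. In bulk RNA, more cells of a type and more RNA per cell cannot be told apart, and the part of these cells in the result was not tested.

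Of the 24 genes, Rpl3, Pagr1a, Hddc3, Serpina3h, Ankrd23 and Trim12a have near-identical genes elsewhere in the annotation, so their counts may have been divided with those.

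**Figure D3:**
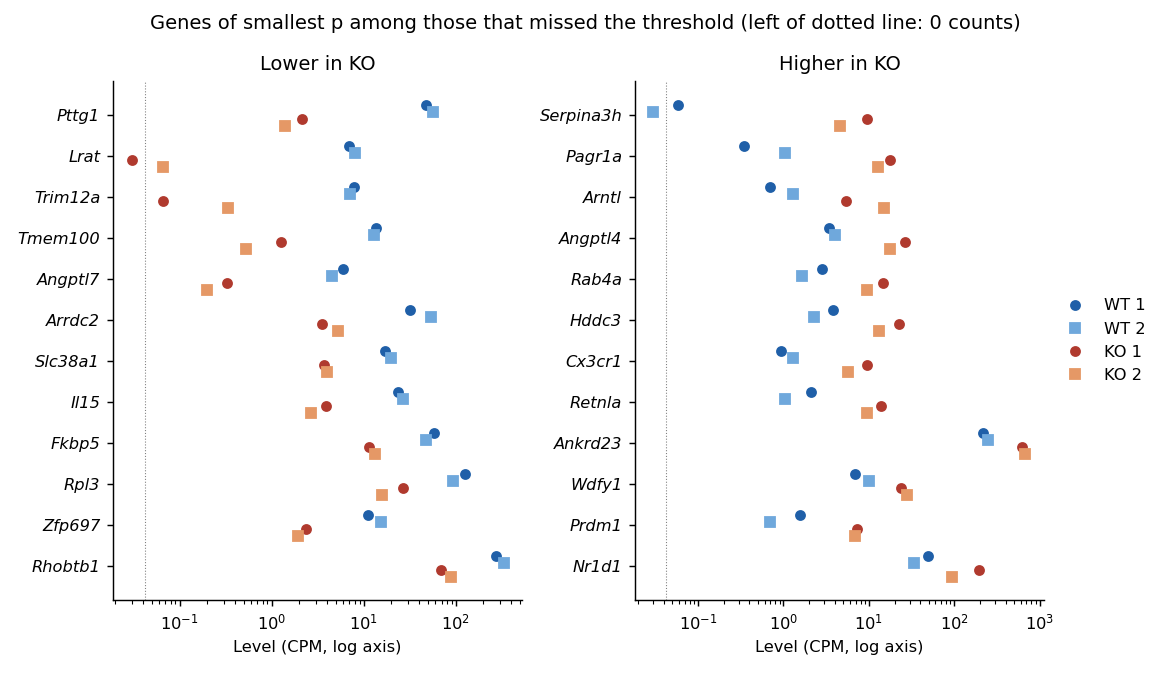
Level in CPM (log axis) of 12 genes in each direction, in each adult library (blue WT, red and orange KO). They had the smallest p among genes that missed the threshold, did not overlap and reached 5 CPM. Gm, Rik, ps and accession-like names were left out. Left of the dotted line lie libraries with 0 counts. The libraries of the 2 genotypes do not overlap for any of the 24, which the choice of these genes required.

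The circadian clock is a feedback loop in which Arntl (BMAL1) and Clock drive the Per, Cry and Nr1d1 genes through E-boxes, PER and CRY proteins inhibit them, and NR1D1 and ROR proteins act on Arntl. Dbp, Tef and Hlf are output factors that bind D-boxes. In the heart the clock times metabolism, and the time of day at which hearts were taken is not given in the labels. Of 19 clock genes tested, 0 changed. At an unadjusted p under 0.05, 2 were higher in KO, against 1.01% of all genes, and 4 were lower, against 1.26%. Arntl and Per2 passed with DESeq2 (adjusted p = 0.00247 and 0.0466) and in edgeR without a filter on low counts (adjusted p = 0.00126 and 0.00431). The libraries did not overlap for 11 genes lower and 2 higher in KO, against 14.47% and 13.47% of all genes. The median log2 fold change was -0.62, against 0.00734 over all genes.

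Arntl lay at 0.699 and 1.31 CPM in WT and 5.34 and 14.9 CPM in KO (log2 3.33 ± 0.69, adjusted p = 0.345). Nr1d1, the repressor REV-ERB alpha, lay at 49.3 and 34.2 CPM in WT and 195 and 94.98 CPM in KO (log2 1.80 ± 0.51, adjusted p = 1). Both were higher in every KO library. Clock, chosen after its values were seen, was at 35.3 and 27.5 CPM in WT and 26.0 and 65.8 CPM in KO, and its groups overlapped.

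Of the Per genes, Per3 lay at 52.1 and 72.3 CPM in WT and 16.7 and 22.7 CPM in KO (log2 -1.66 ± 0.43, adjusted p = 0.821). The following members were chosen after their values were seen. Per2 lay at 63.6 and 63.4 CPM in WT and 9.62 and 9.74 CPM in KO, nearly the same in both libraries of each genotype (log2 -2.71 ± 0.82, adjusted p = 1). Per1 lay at 89.0 and 79.1 CPM in WT and 35.0 and 57.7 CPM in KO. Ciart, a repressor of the loop, lay at 13.9 and 10.6 CPM against 4.48 and 3.25 CPM, and Cry1 at 12.98 and 15.8 CPM against 7.71 and 8.29 CPM. Among the output factors, Hlf lay at 38.01 and 39.4 CPM against 12.3 and 11.9 CPM and Tef at 286.5 and 316.1 CPM against 138.8 and 140.0 CPM. Dbp did not share that order, at 103.7 and 112.5 CPM in WT and 134.5 and 40.7 CPM in KO.

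The promoters of these genes, 250 bases before to 50 after the start, were searched on both strands for CACGTG (E-box), TTATGTAA (D-box) and AGGTCA (the core of the elements bound by ROR and REV-ERB proteins). Of the 21 promoters of 16 of the genes, 6 held an E-box, against 7.15% of 32851 RefSeq promoters of the same length, 1 held a D-box (0.938%) and 5 held AGGTCA (16.3%). A match is a string of letters, not a site shown to be bound. Those of Ciart, Per3 and Arntl, which held 3 E-boxes, 2 D-boxes and 1 AGGTCA, are printed from RefSeq (GRCm38.p6) with the matches in capitals, at chr3:95882179-95882478 on the minus strand, chr4:151044616-151044915 on the minus strand and chr7:113207261-113207560 on the plus strand.
Ciart: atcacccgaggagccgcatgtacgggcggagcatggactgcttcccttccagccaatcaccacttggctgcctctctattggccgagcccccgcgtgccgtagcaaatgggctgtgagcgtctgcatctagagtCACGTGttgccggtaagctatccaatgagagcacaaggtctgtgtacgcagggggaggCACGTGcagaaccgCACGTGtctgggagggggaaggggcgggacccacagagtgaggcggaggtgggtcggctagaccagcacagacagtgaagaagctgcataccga
Per3: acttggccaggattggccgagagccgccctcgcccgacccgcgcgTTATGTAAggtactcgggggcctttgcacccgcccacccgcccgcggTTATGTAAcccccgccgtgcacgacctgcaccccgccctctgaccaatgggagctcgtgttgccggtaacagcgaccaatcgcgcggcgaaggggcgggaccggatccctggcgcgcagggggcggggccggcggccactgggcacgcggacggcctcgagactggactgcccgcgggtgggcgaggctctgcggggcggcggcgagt
Arntl: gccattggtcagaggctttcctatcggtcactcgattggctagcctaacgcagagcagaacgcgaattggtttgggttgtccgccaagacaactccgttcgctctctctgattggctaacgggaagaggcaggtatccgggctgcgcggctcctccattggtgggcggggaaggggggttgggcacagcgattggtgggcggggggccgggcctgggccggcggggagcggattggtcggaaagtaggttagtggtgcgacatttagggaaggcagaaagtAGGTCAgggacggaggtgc

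Glucocorticoids act through the receptor Nr3c1, and their targets include Fkbp5, a cochaperone of that receptor, and the transcription factors Zbtb16 and Klf15. Of 20 genes on this list, 0 changed, 14 had negative and 6 positive log2 fold changes (median -0.27), and 10 were lower and 3 higher without overlap, against 14.47% and 13.47% of all genes. Fkbp5 lay at 57.9 and 47.9 CPM in WT and 11.3 and 13.4 CPM in KO (log2 -2.10 ± 0.43, adjusted p = 0.322). Pik3r1, a regulatory subunit of phosphoinositide 3-kinase, lay at 252.8 and 289.7 CPM against 73.5 and 129.7 CPM. Zbtb16, chosen after its values were seen, lay at 187.6 and 199.3 CPM against 30.6 and 52.1 CPM (log2 -2.23 ± 0.55, adjusted p = 0.701). In the other direction, Pdk4, the kinase that closes pyruvate dehydrogenase, lay at 200.7 and 232.1 CPM in WT and 639.3 and 901.5 CPM in KO (log2 1.83 ± 0.66, adjusted p = 1), and Angptl4, an inhibitor of lipoprotein lipase, at 3.38 and 3.99 CPM against 26.2 and 17.6 CPM (log2 2.57 ± 0.54, adjusted p = 0.352). Nr3c1 itself, chosen after its values were seen, lay at 90.7 and 77.6 CPM in WT and 56.5 and 88.7 CPM in KO, and the groups overlapped. With DESeq2, Fkbp5, Zbtb16 and Angptl4 passed (adjusted p = 0.00802, 0.0269 and 0.01), and without a filter in edgeR, Zbtb16 and Angptl4 did (adjusted p = 0.0455 and 0.0216).

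**Figure D4:**
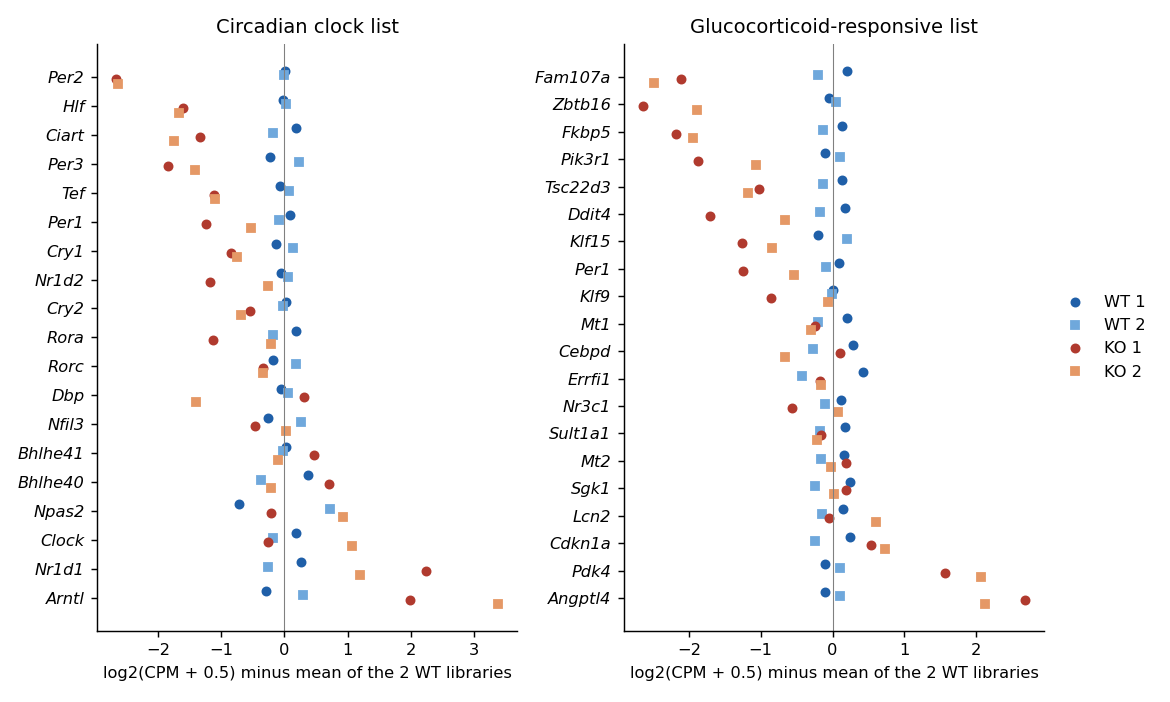
log2(CPM + 0.5) of each adult library minus the mean of the 2 WT libraries, for the 19 clock genes and the 20 glucocorticoid-responsive genes, in the order of their fold change. KO libraries of Per2, Hlf and Ciart and of Fam107a (chosen after its values were seen), Zbtb16 and Fkbp5 lie left of both WT libraries. Those of Arntl, Nr1d1, Pdk4 and Angptl4 lie right of them.

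The heart muscle program showed no changed gene. Of 33 sarcomere and Z-disc genes 17 had positive and 16 negative log2 fold changes (median 0.03), and Myh6, the main adult myosin heavy chain, lay at 42758 and 41917 CPM in WT and 25158 and 37267 CPM in KO. Acta1, skeletal alpha-actin, which hearts under load make more of, lay at 317.9 and 149.9 CPM in WT and 708.1 and 576.9 CPM in KO (log2 1.46 ± 0.69, adjusted p = 1). Nppb, the natriuretic peptide BNP, chosen after its values were seen, lay at 85.8 and 67.1 CPM against 182.6 and 251.7 CPM, but Nppa, the atrial peptide, at 33.6 and 27.8 CPM against 17.8 and 43.7 CPM. Both KO libraries thus exceeded WT for Acta1 and Nppb, and not for Nppa.

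Ion channel and conduction genes lay lower in KO for 16 of 24 members (median -0.41), 13 of them without overlap, against 14.47% of all genes. None of the 24 had an unadjusted p under 0.05. Kcnj12, an inward rectifier potassium channel, lay at 38.1 and 39.8 CPM in WT and 23.5 and 21.7 CPM in KO (log2 -0.78 ± 0.51, adjusted p = 1).

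Genes of fatty acid uptake and oxidation lay higher in KO for 30 of 34 members (median 0.20), 19 without overlap, against 13.47% of all genes. The summed levels of this list overlapped, at 25460 and 27090 CPM in WT and 25300 and 27750 CPM in KO. Fabp3, the heart fatty acid binding protein, lay at 3302 and 2480 CPM in WT and 4506 and 3351 CPM in KO. Among the exceptions, Lpl, lipoprotein lipase, lay at 5464 and 6840 CPM against 2634 and 4388 CPM. Dgat2, which makes triglyceride, was at 626.6 and 755.9 CPM against 224.4 and 195.7 CPM (log2 -1.72 ± 0.47, adjusted p = 0.9). Nuclear genes of oxidative phosphorylation had 37 of 40 positive values (median 0.24), and mitochondrially encoded genes 12 of 13 (median 0.22). The summed levels of the nuclear genes overlapped, at 35600 and 32330 CPM in WT and 42580 and 35310 CPM in KO. The share of counts from the mitochondrial genome was 22.6% and 28.1% in WT and 28.8% and 27.4% in KO, so WT library 1 was the lowest.

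Immediate early genes, which are switched on within minutes of a stimulus, lay lower in KO for 22 of 26 members (median -0.61), 16 without overlap, against 14.47% of all genes. Jun lay at 270.3 and 218.9 CPM in WT and 98.6 and 125.9 CPM in KO, and Ier5 at 66.2 and 107.0 CPM against 31.4 and 34.3 CPM (log2 -1.40 ± 0.43, adjusted p = 1). The heat shock genes Hspa1a and Hspa1b stood apart in WT library 1, at 189.8 and 216.2 CPM, with 5.86 to 31.2 CPM in the other 3 libraries.

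Interferon response genes lay lower in KO for 29 of 43 members (median -0.25), 19 without overlap, against 14.47% of all genes. Gvin1 was the 1 that fell (0.00602% of all genes fell), a single call on a list chosen with earlier results of these data known. Gbp6, a guanylate-binding protein, lay at 123.3 and 127.2 CPM in WT and 34.2 and 49.3 CPM in KO (log2 -1.58 ± 0.45, adjusted p = 1). Among the Trim and Gvin genes of chromosome 7, 14 were tested. Of these, 6 were lower and 1 was higher without overlap, against 14.47% and 13.47% of all genes. Gvin1 and Trim12a, among others, were also on the interferon list, so the counts of these lists share genes. The next 4 were chosen after their values were seen. Trim5 had 1.22 and 1.72 CPM in WT and 0 counts in KO, and Trim34a 4.66 and 6.47 CPM against 2.11 and 2.32 CPM. In the other direction Trim34b had 0.175 and 0 CPM in WT and 1.84 and 1.39 CPM in KO, and Trim12c overlapped, at 9.20 and 10.9 CPM against 10.3 and 13.7 CPM.

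Most markers of fibroblasts, endothelium and macrophages had positive log2 fold changes, with no changed gene. The endothelial groups overlapped, with summed levels of 3233 and 2426 CPM in WT and 4681 and 2513 CPM in KO. Mean log2(CPM + 0.5) of the endothelial markers was 6.378 and 6.047 in WT and 6.819 and 5.905 in KO. All 16 fibroblast markers had positive log2 fold changes (median 0.43), of which 2 did not overlap, near the 13.47% of all genes, and their summed level was 1921 and 1108 CPM in WT and 2503 and 1459 CPM in KO. Of 34 extracellular matrix genes 28 were positive (median 0.45). Without overlap, 11 were higher and 2 lower, against 13.47% and 14.47% of all genes. Their summed levels overlapped, at 3981 and 2556 CPM in WT and 5980 and 3516 CPM in KO. Fbn1, fibrillin, lay at 64.7 and 31.7 CPM against 132.0 and 94.98 CPM. Angptl7, the member of smallest p, was lower in KO (log2 fold change -4.27, adjusted p = 0.186 in edgeR). Library 1 was above library 2 in both genotypes for the fibroblast, endothelial and macrophage sums. Epicardial markers lay lower for 12 of 14 members (median -0.89), 10 without overlap, against 14.47% of all genes, with Msln, mesothelin, at 4.83 and 14.5 CPM against 4.81 and 2.19 CPM. Cytoplasmic ribosomal protein genes were positive for 69 of 78 (median 0.41), of which 4 were higher without overlap, against 13.47% of all genes, with summed levels of 12080 and 9384 CPM in WT and 17940 and 9433 CPM in KO. KO library 1 thus carried that excess, with KO library 2 at the level of WT library 2.

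**Figure D5:**
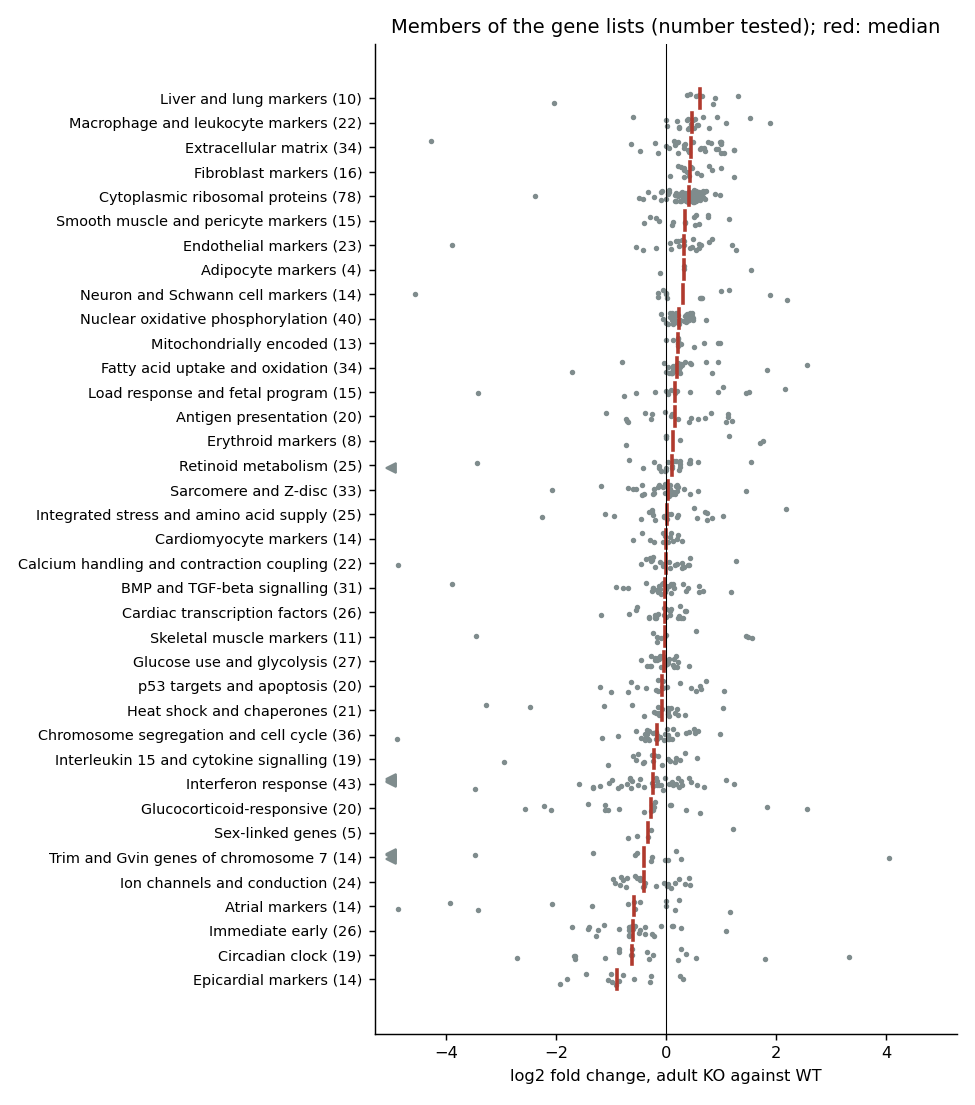
log2 fold change of adult KO against WT for every tested member of the 37 gene lists, with the number tested in brackets; the red bar is the list's median, and 7 values beyond 5 on the axis are drawn as triangles at its edge. Medians run from -0.89 for epicardial markers to 0.61 for liver and lung markers.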

How the data were processed

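RNA of hearts, labelled as cardiomyocyte, was sequenced in 8 libraries, and 4 adult libraries were compared. The deposited values are estimated counts per gene (RSEM expected counts), which the authors made on mm10, per the submitters' processing notes. The aligner and its version are not given in sources used here, nor is the annotation. The name of the deposited table speaks of normalised input, but its whole numbers have differing totals and were read as unscaled counts. Of 51826 identifiers, 51633 matched GENCODE vM21 and 193 did not. No column was left out.

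Counts were fitted in R 4.3.3 with edgeR 4.0.16 (filterByExpr, TMM scaling, quasi-likelihood test, 4 group means over all 8 libraries, no replicate term, limma 3.58.1), with two-sided p; changed means an adjusted p below 0.05. CPM used TMM-scaled library sizes, with adult factors of 0.770 to 0.870. Values after ± are standard errors of a log2 fold change, with 2 libraries per group. With 2 against 2, an exact permutation test cannot go below p = 0.333, so only the fit across genes was used. A fold against 0 counts used a floor of 3 counts over the group. Counting intervals and floors cover counting error only. Near-identical genes were found with BLAST 2.17.0 (identity of 95% or more over 50% or more of the transcript), and plots and tables were made with Python 3.11.15 and matplotlib 3.10.9. The fit was tested on simulated data, with changes placed in genes of at least 5 CPM in adult WT. It found 13 of 50 genes changed 4-fold, 37 of 50 changed 8-fold and 50 of 50 changed 16-fold. There were 8 false calls among 16623 genes. A list with 0 changed genes may thus hold changes of 4-fold that the fit missed. Alternatives were other filters and scalings, DESeq2 1.42.0, the adult libraries alone, a block for the replicate number, and leaving out each library. Counts of near-identical genes were also summed, for families that hold a changed gene only.

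Named genes were Sync, changed genes and the near-identical genes of changed genes. Added were the 12 genes of smallest p per direction that missed the threshold, did not overlap, reached 5 CPM and had a proper symbol. Symbols with a Gm number, Rik, ps or an accession-like name did not count as proper. Each of 37 lists added its changed members, the 2 of smallest p and the 2 of highest level. A gene outside this rule is marked as chosen after its values were seen. A few genes that the rule names are not reported here. The members and lists were chosen with earlier results of these data known.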

Additional observations from a re-analysis of the deposited data

How the results depend on the processing

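The 2 libraries per group limit every value, and no pairing of libraries is stated in the labels. The changed genes (8 in all, 7 higher and 1 lower) became 64 without a filter (29 higher, 35 lower), 13 with median-of-ratios scaling (3 lower), 12 with upper quartile scaling (3 lower), 54 with DESeq2 (23 higher, 31 lower), and 2 in the adult libraries alone (0 higher, 2 lower). All 8 stayed called without a filter, with both scalings and with DESeq2; Mindy4b-ps was lost with a minimum of 5 CPM, robust quasi-likelihood and the block at each age, and all 8 in the adult libraries alone. Leaving out 1 library at a time gave 0 to 6 changed genes, 0 to 5 higher and 0 to 1 lower. With counts of near-identical genes summed, for families that hold a changed gene only, there were 0, of them 0 higher and 0 lower. The interaction of genotype and age passed for 30 genes without a filter, 7 with DESeq2 and 0 otherwise, except 1 with the block at each age.

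The replicate number as a block at each age gave 10 changed genes, 4 of them lower, and in adults alone 5 changed genes, 0 of them lower, without Gvin1, 6330403K07Rik and Mindy4b-ps; same-numbered libraries deviated together with a correlation of 0.307 in adults and 0.552 at e13.5, and the labels do not say that the numbers pair the samples. The direction reversed for Gm4070 (log2 from -0.74 to 0.26 as each library was left out; 0.26 without WT library 1, 0.11 without KO library 1), Rps3a1 (-0.36 to 0.37; -0.14 without WT library 2, -0.36 without KO library 1) and Rpl34 (-0.35 to 0.57; -0.12 and -0.35 in the same order). The cause was not tested. The median log2 fold change of all genes was 0.00734, and at most 0.0237 with other scalings.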

Other observations

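Genes with 0 counts in both adult libraries of a genotype and at least 10 in each library of the other were listed after the data were seen. There were 15 with counts in KO only, of which 11 are annotated as pseudogenes, and 13 with counts in WT only, of which 2 are. Pseudogenes were 2.48% of the genes tested. Of the 15, 3 had the same pattern at e13.5, and 10 had at least 1 count in WT there. Some of these 10 were still far higher in KO at e13.5. Rpl15-ps2, for instance, had 34 and 15 counts in adult KO, and at e13.5 had 2 and 0 counts in WT and 439 and 702 in KO. Rpl3-ps1 had 17 and 13 counts in WT at e13.5 and 11071 and 16486 in KO. Others were not, such as Gm20659, with 173 and 115 counts in WT at e13.5 and 105 and 170 in KO.

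Of the 13 with counts in WT only, 3 had the same pattern at e13.5: Gvin1, Trim5 and Gm16867. Trim5 had 21 and 25 counts in adult WT and 15 and 14 in WT at e13.5, with 0 in every KO library. Gm16867, on chromosome 14, had 65 and 65 counts in adult WT and 65 and 224 in WT at e13.5, also with 0 in every KO library. Ighg2c, the constant region gene of the immunoglobulin subclass IgG2c, had 25 and 22 counts in adult WT and 0 in adult KO, with at most 3 counts in a library at e13.5. Ifi208, of the interferon-inducible p200 family, had 27 and 12 counts in adult WT and 0 in adult KO. Cdh3, the cell adhesion gene of P-cadherin, had 10 and 13 counts in adult WT and 0 in adult KO, but at e13.5 it had 1035 and 1662 counts in WT and 555 and 1554 in KO.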
